A study of Bos taurus with 4 samples.

Results

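The T-box transcription factors TBX18, TBX2, TBX3, TBX4, TBX5, TBX6, TBX15, TBX20 and EOMES were examined in expanded bovine blastocysts that had developed from slow-frozen or from unfrozen control morulae. They were found by symbol in the annotation of the array, which gave 13 probes for the 9 genes, out of 43794 probes and 15229 annotated genes. TBX18 was selected on its ratio of slow-frozen over control in these same arrays, and the others as its relatives, so the TBX18 values are given as a description with no test. Compact morulae had been produced in vitro and, by the labels, collected on day 6. They were either slow-frozen in 1.5 M glycerol at 0.5°C per min and warmed, or left unfrozen, and both groups were then cultured to the expanded blastocyst stage. By the labels, each pool held 7 in vitro produced embryos of beef breed collected on day 7, while pool size varied according to the methods. The methods also place the collection of the morulae on day 7, the day on which the labels place that of the blastocysts, so the age of the embryos is uncertain. The treatment labels separate the groups, although the cryopreservation label reads the same for both. The amplified RNA of 1 slow-frozen pool and 1 control pool was hybridised on each of 4 arrays of 1 slide. The slow-frozen pool was labelled with Cy5 on arrays 1 and 2 and with Cy3 on arrays 3 and 4. The methods state that the 4 pairs were separate biological replicates. All embryos compared here had reached the expanded blastocyst stage, so morulae that did not develop contributed no RNA.

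T-box proteins bind DNA through a shared domain first described in the mouse gene T, and they act as activators or repressors depending on the member and its partners. Most members are known for roles in mesoderm, heart and limb, while EOMES is required in the mouse for the trophoblast and TBX3 has been linked in mouse embryonic stem cells to the pluripotency network. TBX18 is known in the mouse for the epicardium, the head of the sinoatrial node, the mesenchyme of the ureter and the subdivision of the somites, and TBX15 is its closest relative.

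Most of these genes had no probe that was detected above background in at least 4 of its 8 readings. A reading counted as detected where the spot, after subtraction of its local background, was brighter than 95% of the 153 negative controls in that channel. Of the 13 probes, 6 were detected in at least 4 of their 8 readings and were tested, against 69.6% of all probes and 75% of the probes with a gene symbol. These 6 probes belonged to 3 genes, TBX18, TBX2 and TBX3. Over the 13 probes, 26 of 52 readings of slow-frozen pools and 26 of 52 readings of control pools were detected. Thus the number of readings above the limit was the same in both groups. Across the whole array 24629 to 31521 probes were detected per channel. The ratios of slow-frozen over control had correlations of -0.278 to 0.037 between arrays, so a probe's ratio on 1 array said little of its ratio on another.

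**Figure D1:**
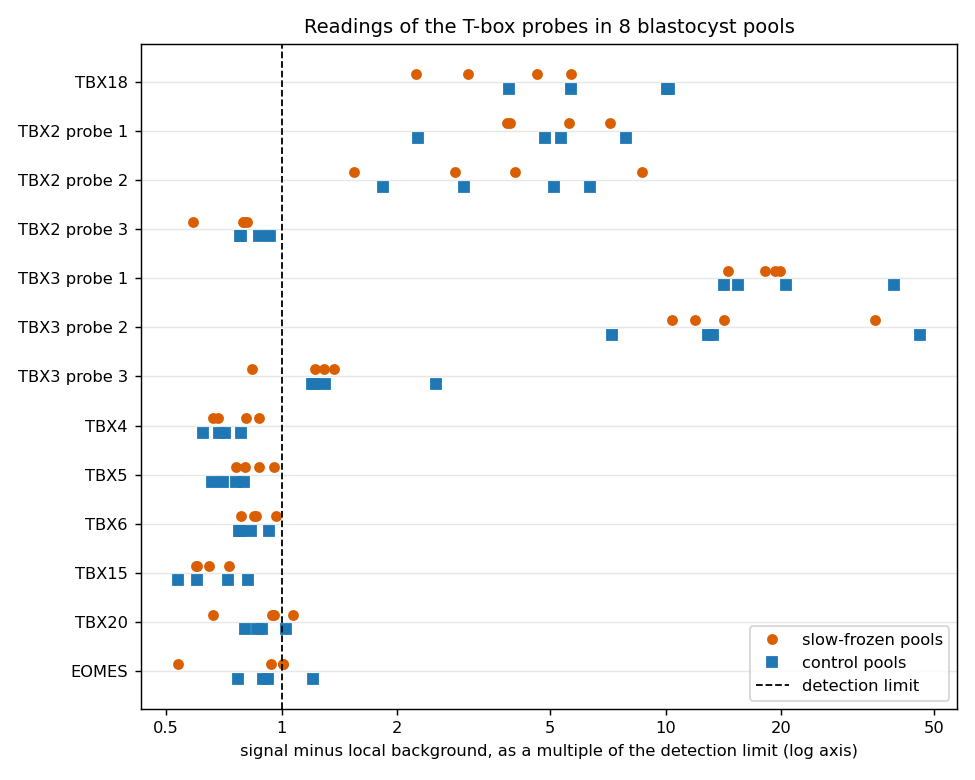
Signal minus local background of the 13 T-box probes as a multiple of the detection limit of the channel (log axis), with the 4 slow-frozen pools (circles) above the 4 control pools (squares) in each row and the limit as a dashed line. TBX18, 2 probes of TBX2 and 2 probes of TBX3 lie above the limit in all 8 readings, whereas the TBX4, TBX5, TBX6 and TBX15 probes lie below it in all 8.

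TBX18 was represented by 1 probe (EMBV3_37331), which was detected in all 8 pools. Its signal stood at 3.06, 5.66, 2.24 and 4.63 times the limit in the slow-frozen pools of arrays 1 to 4, against 5.68, 10.1, 3.91 and 10.2 times in the control pools. These multiples are before dye normalization and can be set against each other only loosely, since the limits differ between dyes. After loess normalization the log2 level was 8.58, 9.03, 8.55 and 9.51 in the slow-frozen pools and 9.55, 10.5, 9.66 and 9.23 in the control pools. The slow-frozen pool was therefore the lower one on arrays 1, 2 and 3 and the higher one on array 4, and the groups overlapped, because the slow-frozen pool of array 4 lay above the control pool of the same array. The mean log2 level was 8.92 ± 0.45 in slow-frozen pools and 9.73 ± 0.54 in control pools (SD, n = 4 each). The log2 ratio of slow-frozen over control was -0.97, -1.47, -1.11 and 0.29 on arrays 1 to 4, and the fitted ratio was -0.82 ± 0.25 (SE, n = 4 arrays), a 1.76-fold lower level. In these whole-embryo pools, fewer cells with the transcript and less transcript per cell cannot be told apart.

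**Figure D2:**
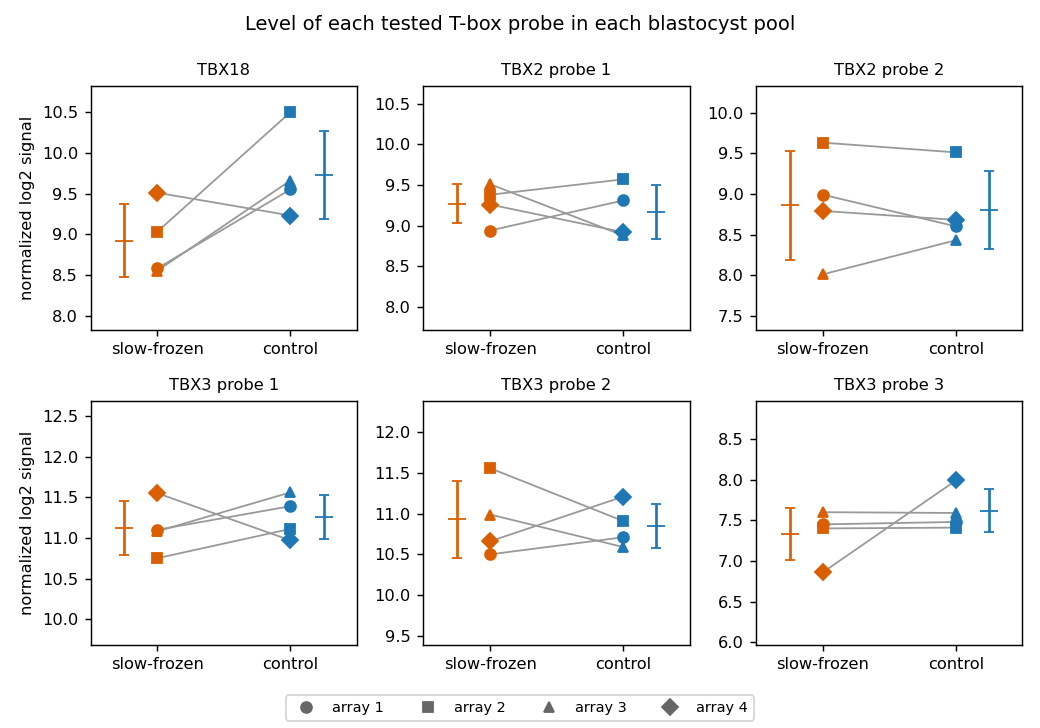
Normalized log2 signal of the 6 tested T-box probes in the slow-frozen pool (left) and the control pool (right) of each array, joined by a line, with the mean ± SD of each group (n = 4 pools) at the sides. TBX18 lies lower in the slow-frozen pool on arrays 1 to 3 and at 9.51 against 9.23 on array 4, whereas the lines of the TBX2 and TBX3 probes run in both directions.

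The ratio of TBX18 ranked 23 from the lowest among 30469 tested probes, and 0.0755% of the probes had a ratio at or below it. This rank follows from the choice of TBX18 for its low ratio on these arrays and is no test. The ratios of TBX18 also spread more between arrays than those of most probes. The SD of the 4 array ratios was 0.76, against a median of 0.32 over all tested probes, and 5.53% of the probes had a larger SD. The 2 dye orientations gave a mean of -1.22 with the slow-frozen pool in Cy5 and of -0.41 with the slow-frozen pool in Cy3, a difference that the SE leaves out because the fit had a dye term. Before dye normalization the log2 ratio of the background-subtracted signals was -1.42, -2.08, -0.93 and 0.82 on arrays 1 to 4. The chosen background correction (normexp) and loess together moved it by 0.45, 0.61, -0.19 and -0.53. With plain subtraction followed by loess the ratio on array 3 was -1.36. On array 4 the median uncorrected signal of all probes was 232 in the dye of the slow-frozen pool and 93 in that of the control pool. With median centring in place of loess the ratio on array 4 was 0.04, and with plain background subtraction it was 0.27. Without array 4 the fitted ratio was -1.17, and without array 3 it was -0.47. Thus the size of the ratio depended on single arrays.

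**Figure D3:**
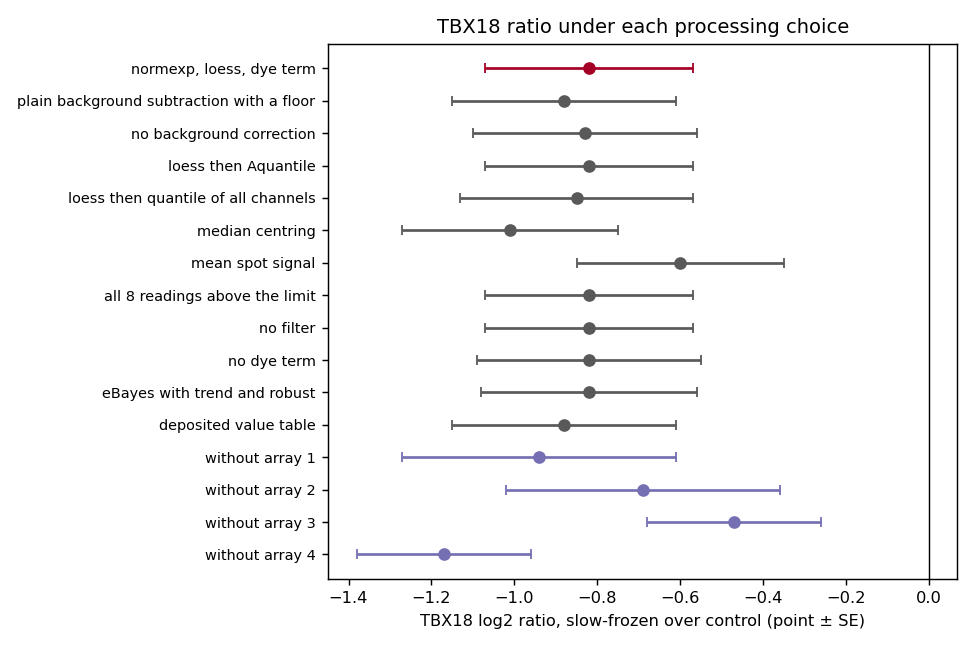
Fitted log2 ratio of TBX18, slow-frozen over control, with its SE under the chosen processing (top) and each alternative. The points run from -1.17 without array 4 to -0.47 without array 3. TBX18 was chosen for a ratio below 0 on these arrays.

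After Benjamini-Hochberg adjustment in limma, 0 of the 6 tested T-box probes and 0 of all 30469 probes (0%) had p under 0.05, while 573 probes (1.88%) were under 0.05 before adjustment. At the study's threshold (unadjusted p under 0.05 with a 1.5-fold difference or more) 39 probes (0.128%) were lower and 84 probes (0.276%) higher in the slow-frozen pools. With median centring these counts were 494 lower and 25 higher, and with mean spot signals 3 lower and 14 higher. TBX18 was 1 of the lower probes. The study named it as lower from its own processing of these arrays, so the counts given here are not those of the study. Of the other 5 tested T-box probes 0 met the threshold in either direction. Of the 6 tested probes 3 had a fitted ratio below 0 and 3 above 0, with a median of -0.04, where 49.4% of all tested probes lay below 0 with a median of 0. The count and the median include TBX18, which was chosen for a low ratio. The other 5 fitted ratios were -0.14, 0.07 and -0.29 for TBX3 probes 1 to 3, and 0.10 and 0.05 for TBX2 probes 1 and 2. Of the 6 probes, 0 lay below 0 on all 4 arrays, against 3.87% of all tested probes, and 0 lay above 0 on all 4, against 3.99%.

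TBX3, a repressor that in human and mouse cells holds back the senescence genes CDKN2A and CDKN1A, was measured by 3 probes. Probe 1 (EMBV3_38063) had log2 levels of 11.1, 10.75, 11.08 and 11.55 in slow-frozen pools and 11.39, 11.11, 11.56 and 10.97 in control pools. Its ratio was -0.29, -0.36, -0.48 and 0.58 on arrays 1 to 4, with a fitted value of -0.14 ± 0.20 (SE, n = 4; 95% interval from -0.62 to 0.34; adjusted p = 0.9999 in limma). Hence it was lower on arrays 1 to 3 and higher on array 4, the same order of signs as TBX18, which 6.76% of all tested probes had. Probe 2 (EMBV3_18954) had log2 levels of 10.5, 11.56, 10.99 and 10.66 in slow-frozen pools and 10.71, 10.91, 10.59 and 11.21 in control pools. Its ratio was -0.21, 0.65, 0.40 and -0.55, with a fitted value of 0.07 ± 0.22 (SE, n = 4; 95% interval from -0.46 to 0.61; adjusted p = 0.9999 in limma). The 2 probes thus had opposite signs on arrays 2, 3 and 4, and the groups overlapped for both. Probe 3 (EMBV3_19046) was detected in 3 of 4 slow-frozen and 4 of 4 control pools. Its ratio stayed at -0.04, -0.02 and 0.01 on arrays 1 to 3 but reached -1.13 on array 4, with a fitted value of -0.29 ± 0.21 (SE, n = 4; 95% interval from -0.79 to 0.21; adjusted p = 0.9999 in limma). The fitted value was -0.01 without array 4 and 0.00 with mean spot signals.

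TBX2, the closest relative of TBX3 and likewise a repressor of the cell cycle inhibitors, was also measured by 3 probes. Probe 1 (EMBV3_10580) had log2 levels of 8.94, 9.38, 9.51 and 9.26 in slow-frozen pools and 9.31, 9.57, 8.88 and 8.92 in control pools. Its ratio was -0.37, -0.20, 0.63 and 0.34 on arrays 1 to 4, so the sign followed the dye orientation, negative with the slow-frozen pool in Cy5 and positive with it in Cy3. The fitted value was 0.10 ± 0.14 (SE, n = 4; 95% interval from -0.25 to 0.45; adjusted p = 0.9999 in limma) and became -0.10 with median centring. Probe 2 (EMBV3_01776) had log2 levels of 8.99, 9.63, 8.01 and 8.79 in slow-frozen pools and 8.60, 9.51, 8.43 and 8.68 in control pools. Its ratio was 0.40, 0.13, -0.42 and 0.11, with a fitted value of 0.05 ± 0.16 (SE, n = 4; 95% interval from -0.33 to 0.43; adjusted p = 0.9999 in limma). The pools of both groups were brightest for this probe on array 2 and dimmest on array 3. Probe 3 (EMBV3_43322) was detected in 0 of 8 readings, at 0.587 to 0.815 times the limit in slow-frozen pools and 0.781 to 0.934 times in control pools. For TBX2 and TBX3 a difference was not detectable with 4 arrays, and the intervals still hold ratios of the size of 1.5-fold for the TBX3 probes.

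**Figure D4:**
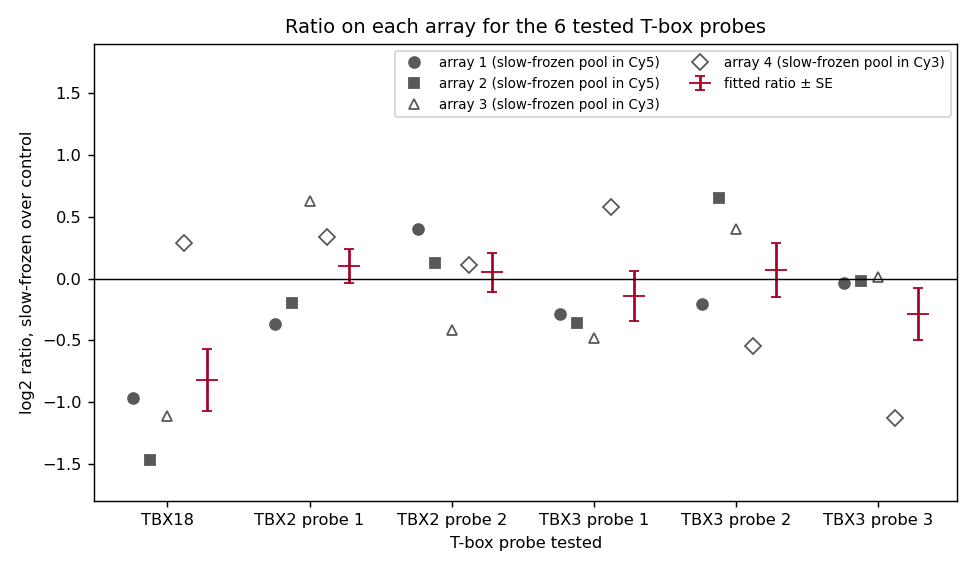
Log2 ratio of slow-frozen over control on each array for the 6 tested T-box probes (filled symbols, slow-frozen pool in Cy5; open symbols, in Cy3), with the fitted ratio ± SE. On array 4 the ratio was 0.29 for TBX18, 0.58 for TBX3 probe 1 and -1.13 for TBX3 probe 3.

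The other 6 genes had no tested probe, and no fold is given for them. TBX5, which in the mouse directs forelimb and heart development, stood at 0.759 to 0.953 times the limit in slow-frozen pools and 0.658 to 0.799 times in control pools. TBX4, its counterpart of the hindlimb, stood at 0.663 to 0.876 times in slow-frozen pools and 0.625 to 0.786 times in control pools. Both were thus below the limit in all 8 readings, although each lies next to a detected member in the genome. In the RefSeq annotation of ARS-UCD2.0, 0 protein-coding genes separate TBX2 from TBX4, and 0 separate TBX3 from TBX5. TBX6, needed in the mouse for paraxial mesoderm, stood at 0.783 to 0.969 times the limit in slow-frozen pools and 0.776 to 0.930 times in control pools. TBX15, known in the mouse for skeletal development and coat pattern, stood at 0.598 to 0.729 times in slow-frozen pools and 0.537 to 0.818 times in control pools. Its 8 readings lay below the limit, unlike those of its relative TBX18.

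EOMES and TBX20 lay at the limit. EOMES stood at 0.941, 0.539, 1.01 and 1.01 times the limit in the slow-frozen pools of arrays 1 to 4, against 0.895, 0.770, 0.924 and 1.21 times in the control pools, so it was detected in 2 of 4 slow-frozen and 1 of 4 control pools. TBX20, a regulator of the heart chambers in the mouse, stood at 1.07, 0.953, 0.665 and 0.944 times in slow-frozen pools, against 0.863, 0.887, 0.803 and 1.03 times in control pools, and was detected in 1 of 4 pools of each group. Under the 99th percentile of the negative control spots, both were detected in 0 of 8 readings, while TBX18, 2 probes of TBX2 and 2 of TBX3 remained detected in 8 of 8. A reading below the limit does not show that the transcript was absent, only that the probe did not rise above unspecific signal.

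Another 6 genes of the family had 10 probes on the array. MGA, which carries a T-box and pairs with MAX in the repression of germ line genes, was tested by 3 probes at log2 ratios of 0.05 ± 0.16, -0.13 ± 0.16 and 0.00 ± 0.17 (SE, n = 4 each). TBX21, the T-box factor of type 1 helper T cells, had a detected probe at -0.09 ± 0.27, with ratios running from -0.72 to 0.93 between arrays, another probe at -0.12 ± 0.15 and a last one detected in 0 of 8 readings. TBXT, the bovine gene corresponding to mouse T, TBR1 and TBX10 were detected in 0 of 8 readings, and TBX19 in 2 of 8. Of the 5 tested probes of these genes 0 passed the adjustment in limma, and their fitted ratios did not depart from 0 by more than their SE.

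The 5 annotated genes whose levels were most like those of TBX18 over the 8 pools were GUCY1A2, CAND1, DDX1, POLI and NUP133, with Pearson's r of 0.952, 0.940, 0.939, 0.933 and 0.932. They were the highest of 11833 genes compared over 8 readings that share 4 arrays and 1 slide, and so many genes leave room for high values of r in so few readings. CAND1, an exchange factor of cullin ubiquitin ligases, had ratios of -0.42, -0.75, -0.71 and 0.13 on arrays 1 to 4 and a fitted ratio of -0.44 ± 0.19 (SE, n = 4). The fitted ratios of the other 4 lay between -0.22 and -0.10. The readings used to pick these 5 genes also give their ratios, so ratios below 0 follow in part from the choice. Among the T-box probes, r with TBX18 was 0.24 and 0.37 for the detected probes of TBX2 and 0.36, -0.11 and -0.18 for probes 1 to 3 of TBX3.

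Genes that act around the T-box factors were taken from lists by their brightest tested probe, against 51% of 11834 genes lying lower with a median of 0. Of the signals known to act upstream of T-box genes, such as BMP, Nodal, WNT and FGF, 7 of 19 lay lower and 12 higher, with a median log2 ratio of 0.01. BMP2 had -0.29 ± 0.25 (SE, n = 4), with -1.51 on array 3, and TCF7, a WNT effector, had -0.21 ± 0.31. Of the partners and corepressors 6 of 16 lay lower and 10 higher, with a median of 0.04. NCOR1, a nuclear corepressor, had -0.26 ± 0.15 and SALL4 had 0.25 ± 0.19. Of the genes known as targets, mostly in the mouse, 4 of 15 lay lower and 11 higher, with a median of 0.07. The gap junction gene GJA1, which TBX2 and TBX3 repress in the mouse heart, had -0.41 ± 0.17, and NANOG had 0.82 ± 0.87 with ratios of -2.18, 3.24, 2.59 and -0.39 on arrays 1 to 4. CDKN2A and TBXT were among 6 targets detected in 0 of 8 readings. In each of the 3 lists 0 genes passed the adjustment in limma, and 0, 0 and 1 genes lay under an unadjusted p of 0.05, against 1.88% of all probes.

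The pools carried the markers of a blastocyst. Of 14 trophectoderm genes with a probe 12 were detected in all 8 readings, among them CDX2, GATA3 and KRT18, and of 9 epiblast genes 6 were, among them POU5F1 and NANOG. Of 8 hypoblast genes 6 were detected in all 8 readings. Over the whole array 19219 of 43794 probes were detected in all 8 readings. In the lists a gene counted by its most often detected probe, so the counts can be set against that share only loosely. Of the 8 tested epiblast genes 7 lay higher and 1 lower (median 0.31), against 51% of 11834 genes lying lower with a median of 0. NANOG (0.82 ± 0.87) and the RNA-binding protein gene LIN28B (0.63 ± 0.22) had the largest ratios (SE, n = 4 each). LIN28B was positive on all 4 arrays and was the 1 gene of the list under an unadjusted p of 0.05. The summed signal of the epiblast list ran from 22823 to 30250 in slow-frozen pools and from 16457 to 34030 in control pools. Of the 14 trophectoderm genes 10 lay higher and 4 lower, with a median of 0.08, while IFNT, the pregnancy recognition signal of ruminants, had -0.84 ± 0.37 with 0.67 on array 3, and the pregnancy-associated glycoprotein gene PAG2 had -0.42 ± 0.33. The summed signal of the trophectoderm list ran from 129816 to 164354 in slow-frozen pools and from 132607 to 207920 in control pools. Of the 6 tested hypoblast genes 3 lay higher and 3 lower, with a median of -0.06, LAMA1 at -0.28 ± 0.16 and COL4A1 at 0.26 ± 0.18, and the summed signal ran from 6229 to 16524 in slow-frozen pools and from 7243 to 14694 in control pools. In these 3 lists 0 genes passed the adjustment in limma. The ranges of summed signal overlapped between slow-frozen and control pools, but all summed signals in this paragraph are before dye normalization. They add the background-subtracted signal of the brightest probe of each gene, tested or not. The ranges thus mix dye and array brightness, and their overlap does not show equal marker content in the groups. Of 12 marker genes of heart, limb and somite mesenchyme, where TBX18 is best known, 6 had a tested probe. In all 8 readings 2 were detected, ACTC1 and PAX3, and 4 in none, MEOX1, MYF5, PRRX1 and TCF21. The summed signal of this list ran from 1686 to 3649 in slow-frozen pools and from 1907 to 5512 in control pools, and of its 6 tested genes 1 lay lower, ACTC1 at -0.58 ± 0.26 (SE, n = 4) with -1.8 on array 2, while WT1 had 0.22 ± 0.16. Markers of cumulus and granulosa cells had a summed signal of 4506 to 7078 in slow-frozen pools and 5090 to 9869 in control pools. Of their 12 genes with a probe 5 were detected in all 8 readings, COL1A2, CYP19A1, HSD3B1, PTX3 and STAR, and 2 in none, FOXL2 and AMH. Of their 9 tested genes 6 lay lower, with a median of -0.10, LUM at -0.51 ± 0.22 and COL1A2 at -0.28 ± 0.19. Of these last 2 lists 0 genes passed the adjustment in limma. The part of any of these 5 lists in the TBX18 ratio was not tested.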

How the data were processed

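The scanner files deposited by the authors hold median and mean spot intensity and local background per channel, neither corrected nor normalized, from amplified RNA on the EmbryoGENE bovine array; 14 closing lines of statistics per file were left out. The value table deposited by the authors is on a log2 scale, centred, with column medians of -0.0023, 0.00051, -0.0023 and 0.0017, and correlated with log2 Cy5 over Cy3 at 0.993, 0.985, 0.941 and 0.976, so it was read as that ratio and turned by dye. The methods describe subtraction of the background with a floor, lowess within arrays and quantile normalization between arrays; for TBX18 the table equals, to 2 decimals, plain subtraction with a floor followed by loess alone.

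Background was corrected by normexp with an offset of 50 over every spot, starting from the median intensity, and loess then removed the dye trend of each array in limma 3.58.1 (R 4.3.3). Control spots and 31 spots that the scanning software ignored got weight 0. The dyes in the labels set the direction, slow-frozen over control. Probes with at least 4 of 8 readings above the limit entered a linear model of treatment and dye, with moderated standard errors (SE) from eBayes, and p-values were adjusted by Benjamini-Hochberg over all 30469 probes. Levels per pool are after loess and Aquantile scaling, which keeps the ratios. On simulated data with independent normal noise, the fit was checked for whether it returned the mean ratios put in. That check does not show how the fit behaves with the noise of these arrays. Of 43794 probes 21790 had 1 symbol, 0 several and 22004 none; 1524 symbols were updated through RefSeq synonyms. Every T-box probe was named; in each other list, the counts and the 2 genes with the largest ratio, and the 5 genes most like TBX18. The members, lists and tests were chosen with earlier results of these data known. Figures were drawn with matplotlib 3.10.9. The number of arrays limits the precision.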

Additional observations from a re-analysis of the deposited data

Results flagged for a closer look

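The ratio of TBX3 probe 3 (EMBV3_19046) on array 4 stood apart from the other 3 arrays, at -1.13 where the others lay between -0.04 and 0.01. The slow-frozen pool of array 4 read 0.840 times the detection limit and the control pool 2.52 times, whereas on arrays 1 to 3 the readings lay between 1.22 and 1.37 times in slow-frozen pools and between 1.20 and 1.30 times in control pools. TBX3 probe 1 had 0.58 on the same array, in the other direction. Before loess the ratio of the background-subtracted signals of TBX3 probe 3 on array 4 was 0.37. With mean spot signals in place of medians the fitted ratio of probe 3 was 0.00 ± 0.06 (SE, n = 4), against -0.29 ± 0.21. Of 13 T-box probes 1 stood apart in this way, and chance gives about 1 in 20.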

How the results depend on the processing

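With 4 arrays, only large differences could pass. The 11 alternatives were 3 background or spot settings (plain subtraction, no correction, mean spot signal), 3 normalizations, 2 filters, 2 model settings and the deposited value table. Under all of them TBX18 lay between -1.01 (median centring) and -0.60 (mean spot signal), and without single arrays between -1.17 and -0.47. Aquantile scaling, the 2 filters and the 2 model settings cannot move the fitted ratio of a probe. TBX18 was at -0.82 under each, which says nothing of its stability. The value table repeated plain subtraction, with TBX18 at -0.88 under both. The number of probes passing the adjustment was 0 under the 11 alternatives and between 0 and 1 without single arrays (1 without array 3). The number at a fold of 1.5 was 123, against 519 with median centring, 17 with mean spot signals, and between 350 and 941 without single arrays; the cause was not tested. Under median centring the ratios of TBX2 probe 1 (-0.10), TBX2 probe 2 (-0.09) and TBX3 probe 2 (-0.20) lay below 0. TBX2 probe 2 was also at -0.01 with plain subtraction, no correction and the value table, at -0.03 with quantile normalization, and at -0.02 and -0.08 without arrays 1 and 4. TBX3 probe 2 was at -0.14 and -0.16 without arrays 2 and 3, and TBX3 probe 1 at 0.13 without array 3. TBX3 probe 3 was at 0.00 with mean spot signals. Leaving out an array gives the remaining array of its dye orientation more weight. Of all T-box readings 50% were detected, 43.3% under the 99th percentile, 50% without background subtraction, and between 48.7% and 51.3% without single arrays. The ratio within an array already pairs its pools.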
